A study of Mus musculus with 16 samples.

Results

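Small leucine-rich proteoglycans were followed in pressure-overloaded mouse ventricles through 8 genes, chosen by symbol: Fmod, Bgn, Dcn, Lum, Ogn, Prelp, Aspn and Omd. They are 8 of the 22372 protein-coding genes of the table, and all 8 were among the 13331 genes with enough counts to be tested. The list was selected on earlier results, namely the log2 differences of Fmod, which had been seen to lead the rise with constriction and to be among the largest decreases with THZ1. Both comparisons are therefore described for the 8 genes without p-values, and counts past the threshold are set beside the share over all genes with nothing read from them. RNA came from ventricle pieces of C57BL/6J mice, which were 10 to 12 weeks old when the experiment began and were all male according to the methods of the study. Transverse aortic constriction (TAC) narrows the aortic arch with a suture and loads the left ventricle with pressure, whereas sham mice had the same operation without the suture. THZ1, a covalent inhibitor of the transcriptional kinases CDK7, CDK12 and CDK13, was injected intraperitoneally at 10 mg/kg b.i.d. from day 1 to day 60 after surgery. There were 4 libraries for each combination of surgery and injection (TAC or Sham, with THZ1 or with Veh for vehicle), and vehicle mice had no THZ1. The labels name no modified allele. The drug was given to the whole animal and RNA came from whole tissue, so no value is that of 1 cell type.

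Small leucine-rich proteoglycans are secreted core proteins built from leucine-rich repeats, many of which carry chondroitin, dermatan or keratan sulfate chains. They bind fibrillar collagen and set the diameter and spacing of its fibrils, and several also bind growth factors such as TGF-β or innate immune receptors. In the heart they are made mainly by fibroblasts and other stromal cells, and they are known as part of the matrix that accumulates in fibrosis. Decorin, biglycan and asporin form class I of the family, fibromodulin, lumican, PRELP and osteomodulin class II, and osteoglycin belongs to class III.

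Values are normalized counts, which are reads per gene divided by a size factor of each library. The libraries held 21.4 to 35.8 M (mega) reads in protein-coding genes, and mitochondrial genes took 33.2% to 44.7% of them. TAC-THZ1 replicate 2 stood apart for these genes. It was the lowest of its group in 7 of the 8 genes, and it also had the highest mitochondrial share (44.7%) and the highest summed level of 6 cardiomyocyte markers of the TAC-THZ1 libraries (932579 normalized counts against 752811 to 797984 in the other 3). In TAC-Veh, replicates 1 and 2 were each the highest in 4 of the 8 genes, and replicates 3 and 4 were each the lowest in 4.

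Most of these genes stand beside another member of the family. On the NCBIM37 (mm9) build, Prelp (ENSMUSG00000041577, chromosome 1, 135806881 to 135817991, minus strand) was separated from Fmod (ENSMUSG00000041559, chromosome 1, 135933831 to 135944854, plus strand) by 115.84 kb, with Optc on its other side at 2.305 kb. On chromosome 10, Dcn (ENSMUSG00000019929, 96942245 to 96980777, plus strand) was followed after 47.358 kb by Lum (ENSMUSG00000036446, 97028135 to 97035337, plus strand), then by Kera and Epyc. On chromosome 13, Ecm2, Aspn (ENSMUSG00000021388, 49639812 to 49662926), Omd (ENSMUSG00000048368, 49678135 to 49687978) and Ogn (ENSMUSG00000021390, 49703440 to 49719869) lay in a row on the plus strand, with gaps of 11.654, 15.209 and 15.462 kb. Bgn (ENSMUSG00000031375, chromosome X, 70728941 to 70741272, plus strand) stood alone. Cenpp, a centromere protein gene, spans Aspn, Omd and Ogn on the other strand, and its level did not pass the test in any of 4 comparisons (adjusted p from 0.391 to 0.894). Reads were counted by strand, so reads of Cenpp are kept apart from those of the 3 proteoglycan genes.

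RefSeq promoters of the GRCm38.p6 build were found by symbol for 6 of the 8 genes, all but Dcn and Lum. The 250 bases before the start are shown for Fmod, the gene with the widest range of levels, and for the Aspn, Omd and Ogn neighbours, which are close on the chromosome and differed in their levels below. Capitals mark matches, on either strand, to the SMAD element CAGAC in Fmod, to the TATA box TATAAA in Aspn and Ogn, and to the TEAD element GGAATG in Ogn.
Fmod, chr1:134037004-134037253, + strand: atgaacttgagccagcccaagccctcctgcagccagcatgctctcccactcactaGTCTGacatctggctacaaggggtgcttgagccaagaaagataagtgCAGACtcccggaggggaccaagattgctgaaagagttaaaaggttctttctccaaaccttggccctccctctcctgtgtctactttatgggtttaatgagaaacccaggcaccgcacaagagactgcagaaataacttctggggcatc
Aspn, chr13:49544193-49544442, + strand: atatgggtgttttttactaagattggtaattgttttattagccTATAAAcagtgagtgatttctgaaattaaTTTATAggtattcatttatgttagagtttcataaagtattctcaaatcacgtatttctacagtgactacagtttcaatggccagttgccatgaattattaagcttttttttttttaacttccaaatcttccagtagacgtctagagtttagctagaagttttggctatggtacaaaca
Omd, chr13:49582212-49582461, + strand: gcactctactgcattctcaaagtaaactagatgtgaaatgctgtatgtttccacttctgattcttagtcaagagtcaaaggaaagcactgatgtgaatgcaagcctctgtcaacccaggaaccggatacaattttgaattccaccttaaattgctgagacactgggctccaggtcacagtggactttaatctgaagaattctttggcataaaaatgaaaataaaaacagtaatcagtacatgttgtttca
Ogn, chr13:49607765-49608014, + strand: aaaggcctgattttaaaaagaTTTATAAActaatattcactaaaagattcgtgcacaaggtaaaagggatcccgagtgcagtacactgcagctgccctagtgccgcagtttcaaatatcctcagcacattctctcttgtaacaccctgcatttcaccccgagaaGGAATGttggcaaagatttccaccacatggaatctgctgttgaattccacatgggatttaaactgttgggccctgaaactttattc
In Fmod the SMAD letters began at positions -195 and -148 from the start. In Aspn the TATA letters began at -207 and -178, and in Ogn they began at -229 and -227, as overlapping matches on the 2 strands, with the TEAD letters at -86. None of the 4 motifs, the AP-1 site TGANTCA included, was found in Omd. Of 32851 promoters of the same length, 42.2% held CAGAC, 12.4% TATAAA, 12.6% GGAATG and 6.75% TGANTCA. These matches describe letters within the window and were not tested against the levels.

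Compared per kilobase of exon, the sham ventricle held mostly decorin transcripts. In Sham-Veh, Dcn made up 59.4% ± 0.842 of the summed level per kilobase of the 8 genes (SD, n = 4), Bgn 13.3% ± 0.653, Ogn 11.0% ± 0.180, Lum 7.90% ± 0.213, Aspn 4.95% ± 0.388 and Prelp 3.20% ± 0.287. Omd and Fmod, at 0.227% and 0.0275%, were the rarest. The order of levels per kilobase was the same in Sham-THZ1 (Dcn, Bgn, Ogn, Lum, Aspn, Prelp, Omd, Fmod), and in both sham groups the ranges of neighbours in this order did not overlap. In TAC-Veh the order was Dcn, Bgn, Lum, Aspn, Ogn, Prelp, Fmod, Omd, with overlapping ranges for Lum and Aspn and for Aspn and Ogn. In TAC-THZ1 it was Dcn, Bgn, Lum, Ogn, Aspn, Prelp, Omd, Fmod, and there Lum overlapped Ogn, and Omd overlapped Fmod. So Fmod passed Omd with constriction under vehicle, and Ogn moved from the third to the fifth place.

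The composition shifted toward biglycan and away from osteoglycin. Bgn held 26.0% ± 3.39 of the summed level per kilobase in TAC-Veh, against 16.4% ± 2.31 in TAC-THZ1. These shares depend on the length used, as the exons of Bgn cover 3563 bases and its longest transcript 2377. Division by transcript length would give Bgn a larger share. Ogn held 4.86% ± 0.645 and 7.06% ± 0.760 in these groups. Dcn was at 51.6% ± 2.66 in TAC-Veh, against 60.8% ± 4.39 in TAC-THZ1. Fmod reached 0.662% ± 0.209 in TAC-Veh, against 0.117% ± 0.0530 in TAC-THZ1. The plot of composition shows these mean shares for the 4 groups.

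**Figure D1:**
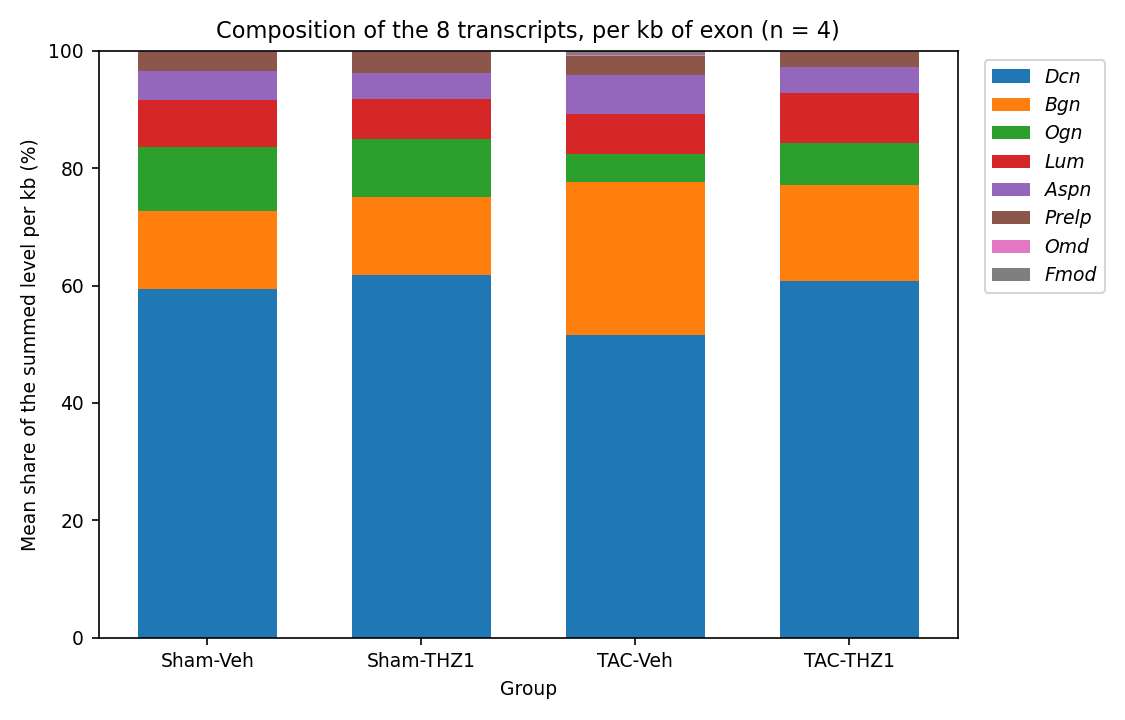
Mean share of each of the 8 genes in their summed level per kilobase of exon, in percent (y axis), for the 4 groups (x axis, n = 4 libraries each). The Bgn segment grows from 13.3% in Sham-Veh to 26.0% in TAC-Veh, and the Ogn segment shrinks from 11.0% to 4.86%.

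Under vehicle the 8 genes together summed to 28686 ± 1549 normalized counts after sham surgery and 75999 ± 15022 after TAC (SD, n = 4). Under THZ1 the sums were 27398 ± 753 and 40671 ± 6453. As a share of the counts of nuclear genes these were 0.166%, 0.462%, 0.157% and 0.237%. TAC-Veh libraries ran from 62947 to 92111, all above every other library, and TAC-THZ1 libraries ran from 33053 to 48831, above all sham libraries. In a piece of tissue, more cells of a type and more RNA per cell cannot be told apart.

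In TAC-Veh against Sham-Veh, 7 of the 8 genes passed the threshold as higher (adjusted p under 0.05), where 21.4% of all genes tested did so, and the same 7 had groups that did not overlap, against 18.2% of all genes. In TAC-THZ1 against TAC-Veh, all 8 passed as lower, where 14.2% of all genes did. Of these, 6 had groups that did not overlap (10.5% of all genes), and Dcn and Lum overlapped. Nothing is read from these counts, since the genes were listed with both comparisons known. Both comparisons share the TAC-Veh libraries. The median log2 difference of the 8 genes was 1.28 with TAC, against -0.00 over all genes, and -1.22 with THZ1 in TAC, against 0.01. Each gene's values follow, by class.

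Decorin, the class I proteoglycan that coats collagen fibrils and binds TGF-β, was the most abundant. Dcn had 14751, 14423, 14989 and 13150 normalized counts in Sham-Veh replicates 1 to 4 and 14802, 14799, 13538 and 13952 in Sham-THZ1. It had 33428, 34033, 27623 and 26028 in TAC-Veh, against 27255, 17747, 18388 and 19557 in TAC-THZ1. The TAC libraries of both treatments were above every sham library, and TAC-THZ1 replicate 1 reached into the TAC-Veh range while the other 3 stayed below it. The log2 difference was 1.07 (SE 0.12) with TAC and -0.56 (SE 0.12) with THZ1 in TAC.

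Biglycan is the close relative of decorin that carries chondroitin or dermatan sulfate, and in soluble form it is a ligand of TLR2 and TLR4. Its increase was the largest in raw counts, but not per kilobase of exon. Per kilobase of exon, mean Bgn went from 1651 in Sham-Veh to 8034 in TAC-Veh, and mean Dcn from 7397 to 15631. This order depends on the length used. Per kilobase of longest transcript (2377 bases for Bgn and 1758 for Dcn) the increase of Bgn would be the larger. Bgn had 6446, 5439, 6127 and 5519 normalized counts in Sham-Veh, against 5994, 5493, 5297 and 5776 in Sham-THZ1. It had 31829, 39119, 20622 and 22937 in TAC-Veh, against 11106, 7384, 11478 and 10843 in TAC-THZ1. The groups formed 3 separate levels, with the sham groups together at the bottom, TAC-THZ1 between and TAC-Veh on top. Its log2 differences were 2.24 for TAC and -1.46 for THZ1 in TAC (SE 0.17 for both).

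Asporin, the class I protein with a run of aspartates in place of a sugar chain, binds collagen and TGF-β. Aspn had 1643, 1425, 1349 and 1368 normalized counts in Sham-Veh, against 1257, 1083, 1354 and 1288 in Sham-THZ1. It had 7221, 5188, 3625 and 3186 in TAC-Veh, against 2035, 1389, 1932 and 2062 in TAC-THZ1. TAC-Veh stood above all other libraries, and TAC-THZ1 replicate 2 lay among the sham libraries while the other 3 were above them. TAC and THZ1 in TAC gave log2 differences of 1.66 and -1.32 (SE 0.19 for both).

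Fibromodulin, a class II keratan sulfate proteoglycan that guides collagen fibril assembly and cross-linking, was close to absent in sham hearts. Fmod had 17.0, 5.61, 8.84 and 13.8 normalized counts in Sham-Veh, against 13.1, 10.4, 9.35 and 9.12 in Sham-THZ1, from 7 to 16 reads per library. It had 1013, 837, 334 and 559 in TAC-Veh, against 41.5, 40.7, 91.1 and 92.0 in TAC-THZ1. The sham groups overlapped, every TAC-THZ1 library was above all sham libraries, and every TAC-Veh library was above all TAC-THZ1 libraries. Group means were 60.7-fold apart between TAC-Veh and Sham-Veh and 10.3-fold apart between TAC-Veh and TAC-THZ1. On the log2 scale the differences were 5.78 for TAC and -3.34 for THZ1 in TAC (SE 0.37 for both).

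Lumican, another keratan sulfate carrier that limits the thickness of collagen fibrils, stayed above its sham level in TAC-THZ1. Lum had 2052, 2077, 2113 and 1921 normalized counts in Sham-Veh, against 1673, 1589, 1694 and 1812 in Sham-THZ1. It had 4102, 5087, 4620 and 3335 in TAC-Veh, against 3358, 2365, 3474 and 3149 in TAC-THZ1. All TAC libraries of both treatments were above all sham libraries, the TAC groups overlapped at TAC-Veh replicate 4, and Sham-THZ1 lay below Sham-Veh without overlap. For TAC and for THZ1 in TAC the log2 differences were 1.05 and -0.47 (SE 0.12 for both).

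PRELP, a class II protein that links basement membranes to the collagen around them, was near its sham level in TAC-THZ1. Prelp had 1558, 1244, 1522 and 1438 normalized counts in Sham-Veh, against 1642, 1447, 1521 and 1547 in Sham-THZ1. It had 3334, 4118, 2434 and 4069 in TAC-Veh, against 1755, 1270, 1546 and 1738 in TAC-THZ1. TAC-Veh was apart from the other 3 groups, which overlapped. The log2 difference was 1.25 (SE 0.14) with TAC and -1.13 (SE 0.14) with THZ1 in TAC.

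Osteomodulin, a keratan sulfate proteoglycan best known from bone, was rare in all groups. Omd had 38.2, 51.3, 46.9 and 39.1 normalized counts in Sham-Veh, against 45.3, 35.4, 32.1 and 27.4 in Sham-THZ1. It had 154, 117, 84.2 and 92.8 in TAC-Veh, against 36.0, 44.6, 24.4 and 52.4 in TAC-THZ1. As for Prelp, TAC-Veh stood alone and the other 3 groups overlapped. Its log2 differences were 1.30 for TAC and -1.50 for THZ1 in TAC (SE 0.23 for both).

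Osteoglycin, the class III member also called mimecan, was the exception to the increase. Ogn had 3593, 3531, 3575 and 3269 normalized counts in Sham-Veh, against 3008, 2742, 3191 and 2909 in Sham-THZ1. It had 4396, 3614, 3604 and 3254 in TAC-Veh, against 3245, 2812, 3174 and 3200 in TAC-THZ1. TAC-Veh overlapped Sham-Veh, and both THZ1 groups lay below the vehicle group of the same surgery without overlap. For TAC its log2 difference was 0.08 (SE 0.08), and -0.00 without TAC-Veh replicate 1. With THZ1 in TAC it was -0.25 (SE 0.08). Ogn was not past the threshold there without TAC-Veh replicate 1 or without TAC-THZ1 replicate 2 (-0.17 and -0.20), with array weights, or in a fit of the 2 groups compared alone.

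**Figure D2:**
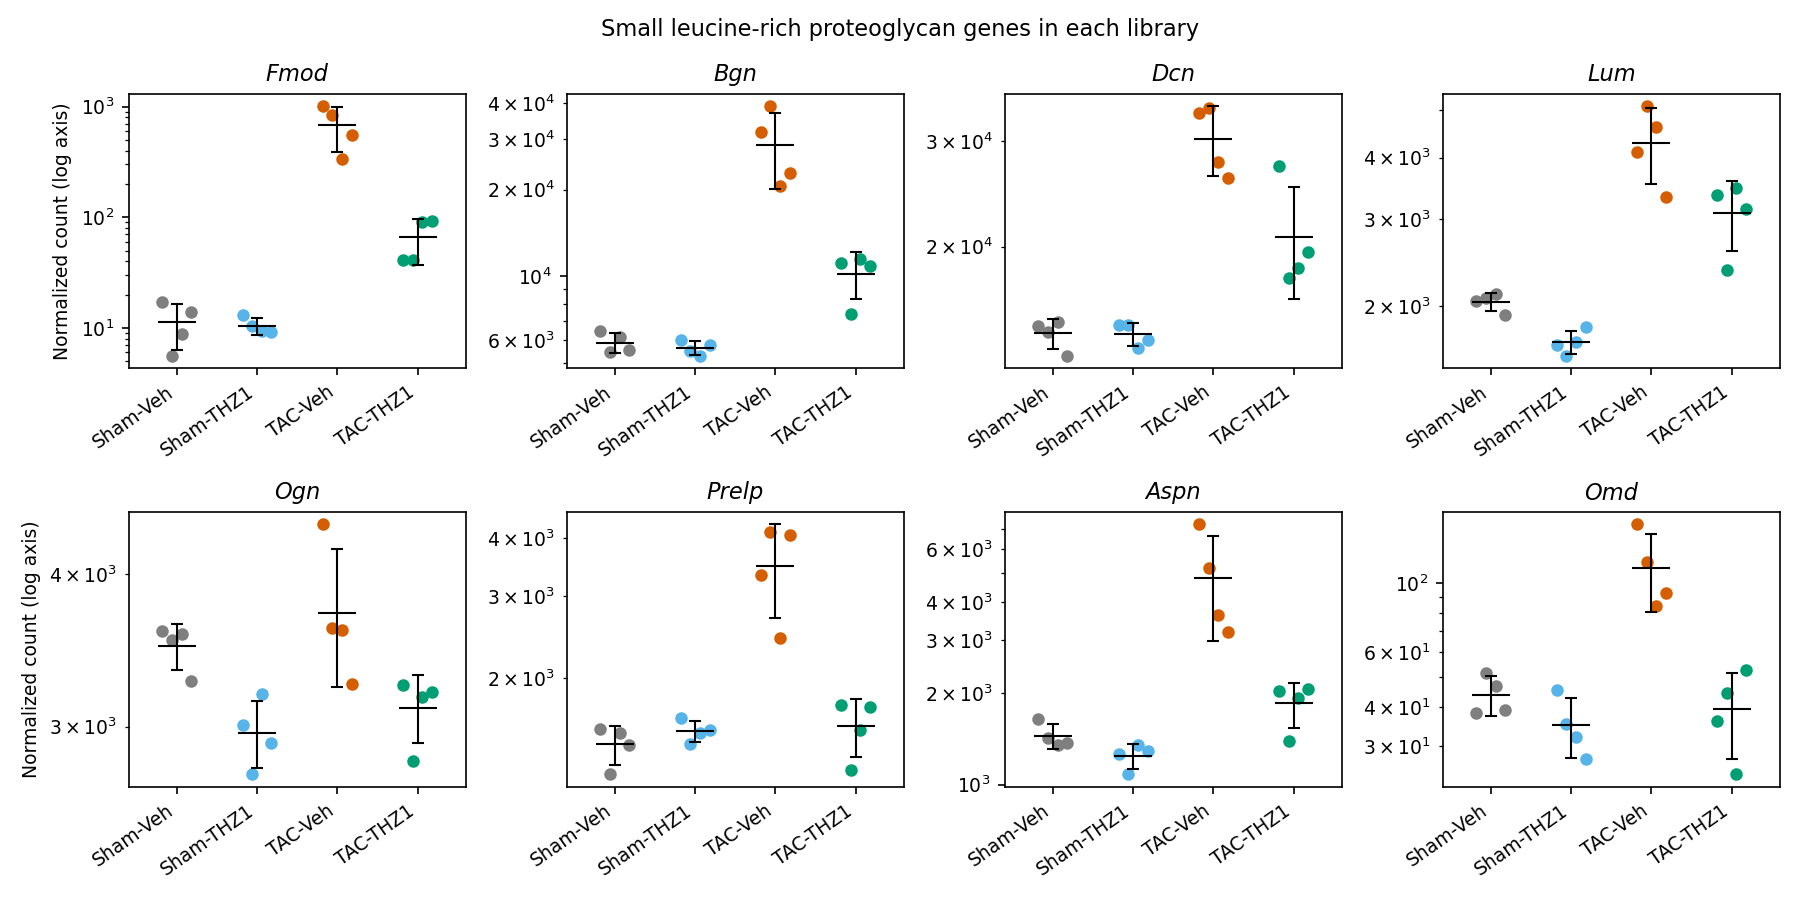
Normalized counts of the 8 genes on log axes (y), with 1 point per library and the mean ± SD of each group in black (n = 4). In 7 panels the TAC-Veh points are above all sham points, whereas in the Ogn panel they overlap those of Sham-Veh.

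Whether THZ1 altered these genes without pressure overload was tested in Sham-THZ1 against Sham-Veh. None of the 8 was called by limma, with 2 at an unadjusted p under 0.05 (6.88% of all genes), and DESeq2 and edgeR on the recovered reads also called 0. Calls were scarce in the whole table, at 0.0225% of genes higher and 0.045% lower. Those 2 genes were Lum, with a log2 difference of -0.27 (SE 0.12, adjusted p = 0.695), and Ogn, with -0.24 (SE 0.08, adjusted p = 0.622). In both, all 4 Sham-THZ1 libraries were below all 4 Sham-Veh libraries, as in 5.05% of all genes. A fit of the 2 groups compared alone called both as lower, with adjusted p-values of 0.00918 for Lum and 0.0184 for Ogn, and so did a fit with array weights, at 0.0378 and 0.0126. These fits called 465 and 513 genes in this comparison, against 9 in the fit over all 16 libraries. Over 27 alternatives the adjusted p ran from 0.00918 to 1.00 for Lum and from 0.0126 to 1.00 for Ogn. The other 6 genes had log2 differences from -0.33 for Omd (SE 0.23, adjusted p = 0.850) to 0.10 for Prelp (SE 0.14, adjusted p = 0.961).

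Which of the 8 genes stayed higher after constriction when both groups had THZ1 was tested in TAC-THZ1 against Sham-THZ1. These libraries include the TAC-THZ1 samples of a comparison already known for these genes. Of the 8, 5 rose, where 11.4% of all genes tested did, and the same 5 had groups that did not overlap (15.7% of all genes). Fmod rose by 2.46 on the log2 scale (SE 0.37, adjusted p = 7.15e-04), a 6.33-fold difference of the means. Bgn rose by 0.84 (SE 0.17, adjusted p = 0.00327), Lum by 0.85 (SE 0.12, adjusted p = 5.26e-04) and Dcn by 0.52 (SE 0.12, adjusted p = 0.00637). In each of these 4 genes, 4 of 4 TAC-THZ1 libraries were above 4 of 4 Sham-THZ1 libraries.

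Aspn rose by 0.56 (SE 0.19, adjusted p = 0.0441) on the edge of the threshold. Its adjusted p ran from 0.00126 to 0.113 over 27 alternatives, and the call was lost with no filter on low counts, with robust eBayes and without any 1 of 11 libraries, namely each of the 8 sham libraries and TAC-THZ1 replicates 1, 3 and 4. Without TAC-THZ1 replicate 2 it was 0.69 (SE 0.19, adjusted p = 0.0191). The remaining 3 genes were not called. Prelp differed by 0.02 (SE 0.14, adjusted p = 0.917), Ogn by 0.07 (SE 0.08, adjusted p = 0.562) and Omd by 0.13 (SE 0.23, adjusted p = 0.709).

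Without TAC-THZ1 replicate 2, the same 5 genes were called in this comparison, with log2 differences of 2.65 for Fmod, 0.98 for Bgn, 0.59 for Dcn and 0.98 for Lum. In TAC-THZ1 against TAC-Veh the differences without it were between -3.15 for Fmod and -0.20 for Ogn, and those of Dcn and Lum became -0.49 and -0.35.

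**Figure D3:**
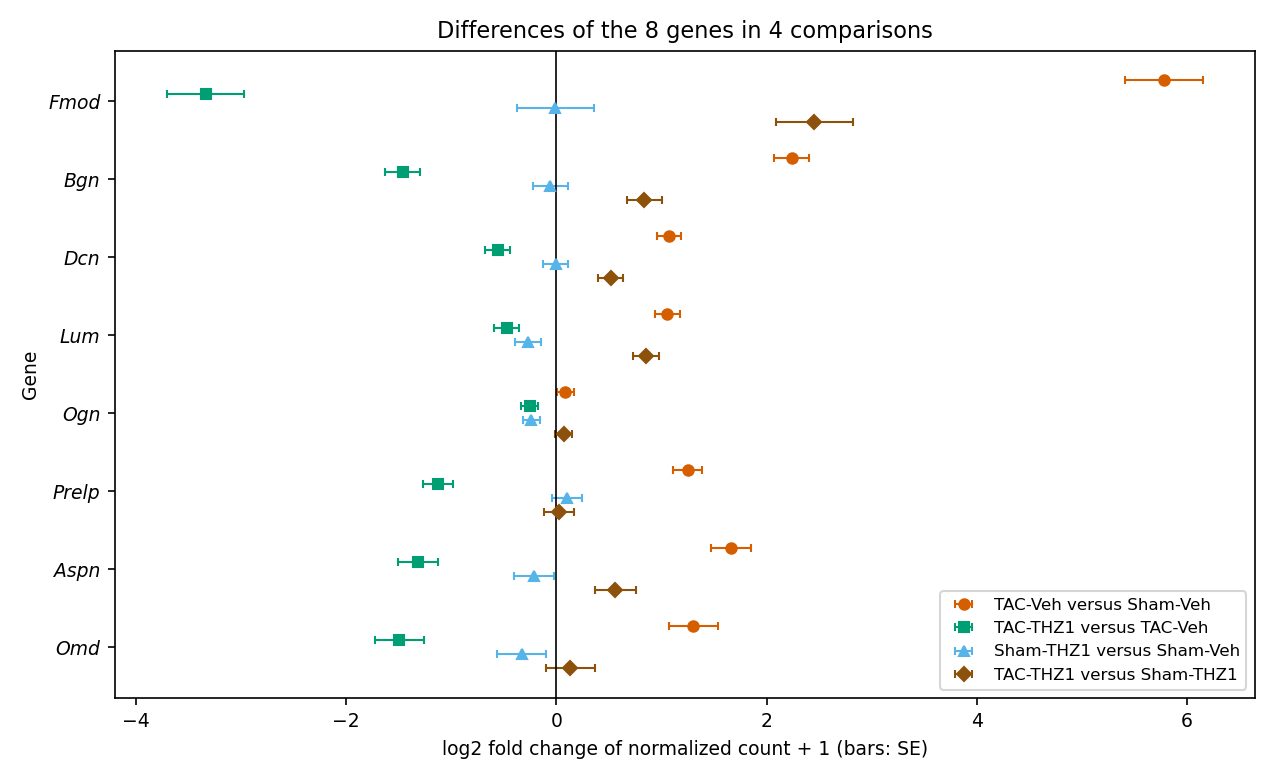
log2 fold changes of normalized count + 1 (x axis) with SE bars for the 8 genes (y axis) in 4 comparisons, each a fit over all 16 libraries. The sham THZ1 triangles lie between -0.33 and 0.10, and the TAC under THZ1 diamonds run from 0.02 for Prelp to 2.46 for Fmod.

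The genes differed in how much of their increase in normalized counts was left under THZ1, given here as a description. The mean excess of TAC-THZ1 over Sham-THZ1 was 62.1% of the excess of TAC-Veh over Sham-Veh for Lum and 40.5% for Dcn. It was 20.1% for Bgn, 18.1% for Aspn and 8.28% for Fmod. With each of the 16 libraries left out in turn it ran from 54.4% to 72.8% for Lum, from 17.96% to 24.2% for Bgn, from 15.6% to 23.8% for Aspn and from 7.01% to 9.88% for Fmod. For Dcn it ran from 26.9%, without TAC-THZ1 replicate 1, to 46.8%. The excess of Lum under THZ1 was counted from a lower sham level, at a mean of 1692 in Sham-THZ1 against 2041 in Sham-Veh. Little excess was left for Omd and Prelp, and its size rested on single libraries. For Omd it was 6.35%, with -0.06% without TAC-THZ1 replicate 4 and 13.7% without replicate 3. For Prelp it was 1.85%, with -1.04% without TAC-THZ1 replicate 1, -0.76% without replicate 4 and 6.85% without replicate 2. Ogn had almost no excess to compare, at 225 normalized counts under vehicle and 145 under THZ1, and no share is given for it. The order of the genes depends on the scale. In log2 differences, TAC under THZ1 gave 2.46 beside 5.78 under vehicle for Fmod. These were 0.84 beside 2.24 for Bgn and 0.56 beside 1.66 for Aspn, so Fmod then kept a larger part than Bgn and Aspn. For Lum they were 0.85 beside 1.05, and for Dcn 0.52 beside 1.07. The log2 difference of THZ1 in TAC minus that in sham was -3.33 for Fmod (SE 0.52) and between -1.40 and -1.10 for Bgn, Prelp, Omd and Aspn. It was -0.55 for Dcn (SE 0.17), -0.20 for Lum (SE 0.17) and -0.01 for Ogn (SE 0.11). The median over the 8 genes was -1.13, against 0.02 over all genes.

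Neighbours on the chromosome did not all have equal levels of change. Fmod and Prelp, the chromosome 1 pair, differed by 5.78 and 1.25 with TAC. Dcn and Lum on chromosome 10 were alike in size, at 1.07 and 1.05. On chromosome 13, Ecm2 rose by 0.81 with TAC (SE 0.11, adjusted p = 2.11e-05), beside 1.66 for Aspn, 1.30 for Omd and 0.08 for Ogn. Kera, the next gene after Lum, had 0 reads in every library, which allows up to 3 reads in each. Of the flanking genes outside the family, Btg2, an antiproliferative gene next to Fmod, rose by 0.65 with TAC (SE 0.19, adjusted p = 0.00892) and fell by 0.57 with THZ1 in TAC (SE 0.19, adjusted p = 0.0297). Haus7, next to Bgn, rose by 0.57 with TAC (SE 0.18, adjusted p = 0.0173), with -0.28 for THZ1 in TAC (adjusted p = 0.265). Btg1, next to Dcn, and Nol8, next to Ogn, had log2 differences of 0.11 (adjusted p = 0.382) and 0.19 (adjusted p = 0.101) with TAC, and neither was called with THZ1 in TAC. Atp2b3, on the other side of Bgn, was below the filter.

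**Figure D4:**
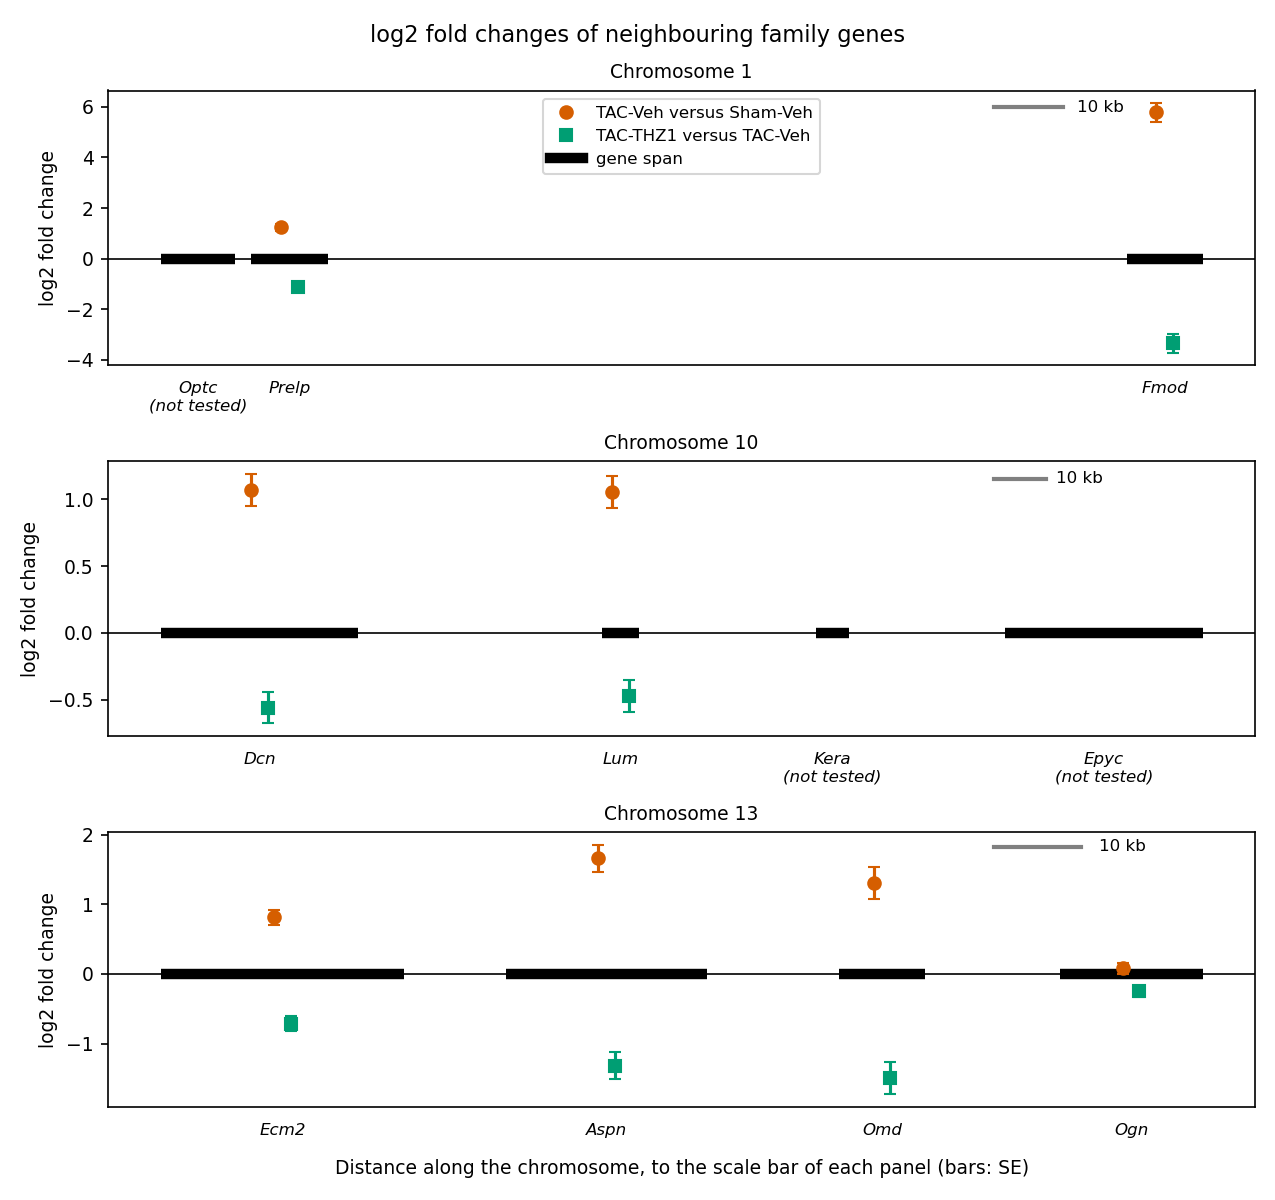
log2 fold changes (y axis, SE bars) of neighbouring family genes on 3 chromosomes, placed by distance to the scale bar of each panel, for TAC-Veh versus Sham-Veh (circles) and TAC-THZ1 versus TAC-Veh (squares). On chromosome 13 the circles of Ecm2, Aspn and Omd are at 0.81, 1.66 and 1.30 and that of Ogn is at 0.08.

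Of 10 other small leucine-rich repeat genes of the family, 5 were abundant enough to test, and 2 rose and 1 fell with TAC, where 21.4% of all genes rose and 23.6% fell. Besides Ecm2, Tsku (tsukushi, a secreted modulator of TGF-β and BMP signals) rose by 1.28 (SE 0.21, adjusted p = 1.33e-04), and Chadl (chondroadherin-like) fell by 0.78 (SE 0.31, adjusted p = 0.0474). With THZ1 in TAC, Ecm2 fell by 0.72 (SE 0.11, adjusted p = 2.59e-04) and Tsku fell by 0.80 (SE 0.21, adjusted p = 0.00936). Podn, the class V member podocan, went the other way with the drug. It had 373, 340, 395 and 369 normalized counts in TAC-Veh, against 529, 433, 570 and 447 in TAC-THZ1, so all 4 treated libraries were above all 4 vehicle libraries. Podn rose by 0.41 with THZ1 in TAC (SE 0.10, adjusted p = 0.00534), with -0.14 for TAC under vehicle (adjusted p = 0.254). Nyx (nyctalopin), at 8.80 to 14.3 normalized counts per group, was called in no comparison. Epyc, Optc, Chad and Podnl1 had group means of at most 3.05 normalized counts and were not tested. None of the 5 was called in Sham-THZ1 against Sham-Veh (0.0675% of all genes), with 1 at an unadjusted p under 0.05 (6.88% of all genes).

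Genes that act on these proteoglycans were read in 5 further lists, against 21.4% of all genes called higher and 23.6% called lower with TAC, and 15.1% higher and 14.2% lower with THZ1 in TAC. These lists, like the marker lists below, were chosen with earlier results of these data known. The genes named from them were picked among those with the smallest p with TAC. Their counts and p-values are therefore given as a description. Of 14 ligands and receptors bound by the core proteins, 12 rose and 0 fell with TAC, and 0 rose and 10 fell with THZ1 in TAC. Tgfb2, a TGF-β ligand bound by decorin and biglycan, rose by 1.94 with TAC (adjusted p = 3.75e-07) and fell by 1.35 with THZ1 in TAC (adjusted p = 6.13e-05). Tlr4, the innate immune receptor bound by soluble biglycan, rose by 0.96 (adjusted p = 2.42e-06) and fell by 0.48 (adjusted p = 0.00256). Tgfb3 rose by 1.18 and fell by 1.09, and Cd44, the hyaluronan receptor, rose by 1.06 and fell by 0.87.

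Of 20 tested genes that build the linker and the chondroitin or dermatan sulfate chains, 7 rose and 1 fell with TAC, and 2 rose and 9 fell with THZ1 in TAC. The median log2 difference was 0.35 with TAC and -0.34 with the drug. Dse and Dsel, the epimerases that turn chondroitin into dermatan sulfate, rose by 0.91 and 0.74 with TAC and fell by 0.60 and 0.67 with THZ1. The chain-polymerizing factors Chpf and Chpf2 rose by 0.76 and 0.78 and fell by 0.66 and 0.58. Of 11 tested genes of keratan sulfate synthesis and sulfate supply, 3 rose and 2 fell with TAC, a share near the background, and 3 fell with THZ1. Papss1, which makes the sulfate donor, rose by 0.42 (adjusted p = 0.00317), and the sulfate transporter Slc26a2 fell by 0.39 (adjusted p = 0.0141).

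Of 14 tested proteases and their enhancers that process or cleave core proteins, 8 rose and 3 fell with TAC, and 2 rose and 7 fell with THZ1 in TAC. Mmp2, a gelatinase, rose by 1.36 (adjusted p = 2.15e-06) and fell by 1.32 (adjusted p = 3.19e-05). Pcolce and Pcolce2, enhancers of the procollagen C-proteinase, rose by 1.46 and 1.03 and fell by 1.08 and 0.62. Htra1, a serine protease that cleaves decorin and biglycan, moved in the opposite sense, as it fell by 0.63 with TAC (adjusted p = 2.62e-06) and rose by 0.25 with THZ1 (adjusted p = 0.0108). Of 16 tested large and cell-surface proteoglycans, 6 rose and 3 fell with TAC, and 9 fell with THZ1 in TAC. Vcan (versican) rose by 1.87 and fell by 1.80, and Prg4 (lubricin) rose by 1.99 and fell by 1.17. Gpc6 and Sdc2, cell-surface heparan sulfate carriers, rose by 0.89 and 0.56 and fell by 1.01 and 0.51. No gene of these 5 lists was called in Sham-THZ1 against Sham-Veh, where 0.0225% of all genes were called higher and 0.045% lower. At an unadjusted p under 0.05 there were 5, beside 6.88% of all genes.

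Among the 5 genes whose log2 levels over the 16 libraries were most like those of Fmod were Ltbp2, a latent TGF-β binding protein family member (Pearson r = 0.989), Cilp, a cartilage intermediate layer protein (0.988), Dio2, the deiodinase that activates thyroid hormone (0.985), and Thbs4, a thrombospondin (0.985). All 16 points share the split into 4 groups. With values centred on the group means none of the 5 was among the top 5, which were led by Sdc1 at r = 0.910. The likest gene was Postn for Bgn (0.996), Pi16 for Dcn (0.984), Nupr1 for Aspn (0.983), Ace for Prelp (0.976), Casp12 for Lum (0.972), Qpct for Omd (0.937) and Rbm26 for Ogn (0.897). Among the 8 genes themselves, r over 16 libraries ran from 0.507 for Fmod and Ogn to 0.980 for Fmod and Bgn, with a median of 0.854 over 28 pairs. Centred on the group means, it ran from -0.22 for Lum and Omd to 0.888 for Ogn and Aspn, with a median of 0.428.

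Fibroblast markers were read beside these genes, against the same shares of all genes (21.4% higher and 23.6% lower with TAC, and 15.1% and 14.2% with THZ1 in TAC). Among 7 activated fibroblast markers, Postn (periostin), Meox1 and Ckap4 had log2 differences of 4.65, 2.34 and 0.93 with TAC. With THZ1 in TAC these were -3.15, -1.88 and -0.41. Cthrc1, at 5.37 and -3.38, passed the filter through its TAC level, at group means of 2.05 and 3.17 in the sham groups. No count of this list is therefore given. Acta2 was not higher with TAC, at means of 1746 normalized counts in Sham-Veh and 1661 in TAC-Veh. Postn carried most of the summed level of these markers, at a mean of 1348 normalized counts in Sham-Veh and 38153 in TAC-Veh. Under vehicle their summed level ran from 3824 to 4854 normalized counts after sham surgery and from 24086 to 73188 after TAC. Under THZ1 it ran from 4188 to 4850 and from 4513 to 10405. Of 7 general fibroblast markers found in the table, 2 rose (Pi16 and Dpt) and 1 fell (Scara5) with TAC, and their sum ran from 7145 to 8061 and 12290 to 15177 under vehicle and from 7493 to 8139 and 7389 to 11600 under THZ1, in the same order. Pi16 alone went from a mean of 1684 in Sham-Veh to 6992 in TAC-Veh, and the counts of this list were near those of all genes. Within TAC-Veh, replicates 1 and 2 had the higher sums of the 8 proteoglycan genes (85477 and 92111 against 62947 and 63461) and also the higher sums of activated fibroblast markers (52299 and 73188 against 24086 and 24988). The part of these markers in the proteoglycan levels was not tested.

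**Figure D5:**
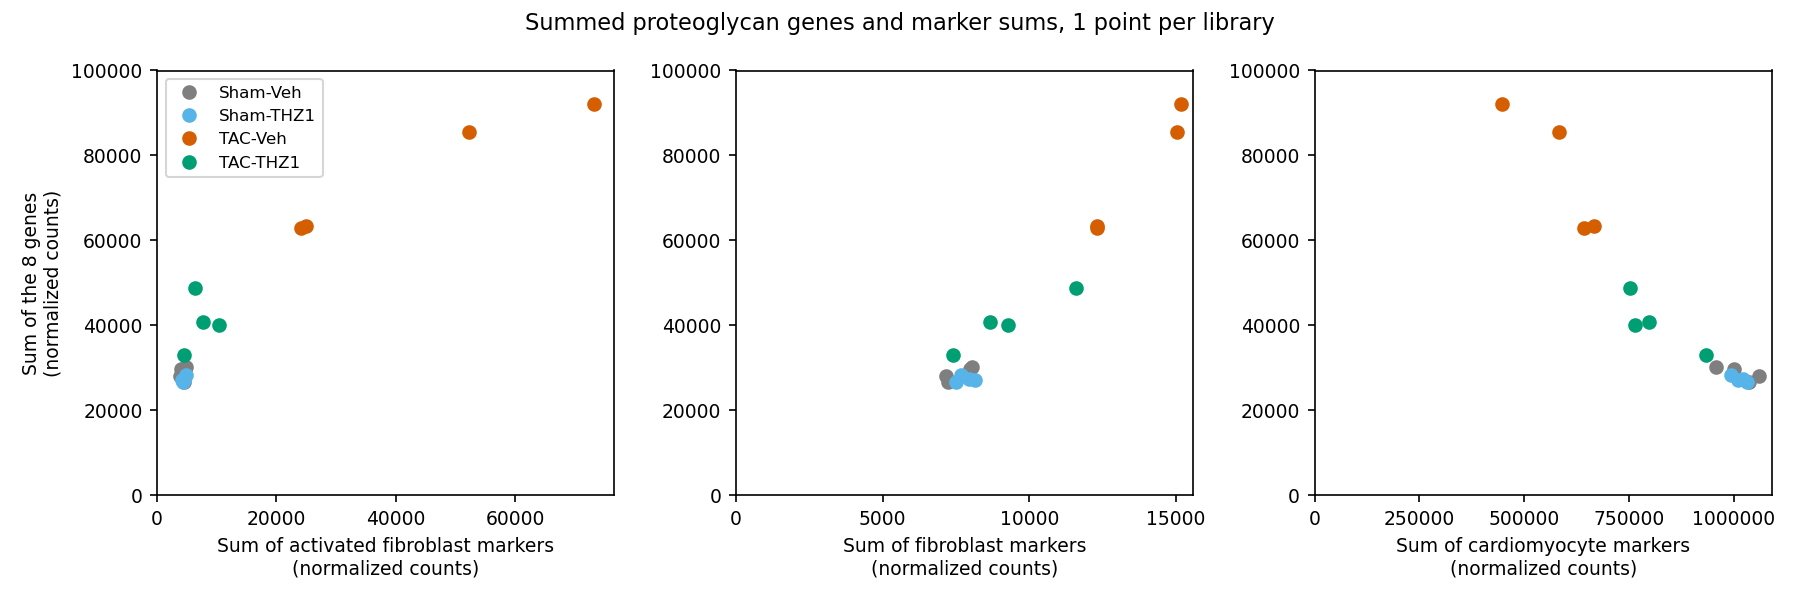
Summed normalized counts of the 8 genes (y axis) against the summed markers of activated fibroblasts, fibroblasts and cardiomyocytes (x axes), with 1 point per library and colours for the 4 groups. TAC-Veh libraries, at 62947 to 92111 on the y axis, lie to the right in both fibroblast panels and to the left in the cardiomyocyte panel.

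Fmod, Omd and Aspn are also known from cartilage, tendon and bone, so markers of cartilage and tendon were read beside them. Of 10 markers, 6 passed the filter, and Tnmd (tenomodulin) and Cilp2 did so only through their TAC-Veh level, so no count of the list is given. Comp had log2 differences of 5.50 with TAC and -3.44 with THZ1 in TAC. Mkx (mohawk), a tendon factor that was not tested, was at 5.61 normalized counts in Sham-Veh and 0.674 in TAC-Veh. The sum of the 10 markers ran from 530 to 840 and from 7587 to 20527 under vehicle, after sham surgery and TAC, and from 574 to 749 and 1001 to 2503 under THZ1. Cilp carried most of this sum, at a mean of 444 normalized counts in Sham-Veh and 10953 in TAC-Veh. Scx was at means of 73.9 and 291 in these groups. The defining cartilage genes Col2a1, Acan and Matn1 were at group means of at most 8.88 normalized counts. Of 6 cardiomyocyte markers 4 fell with TAC and 4 rose with THZ1 in TAC, beside 23.6% and 15.1% of all genes. Their sum ran from 446416 to 666708 in TAC-Veh and from 752811 to 932579 in TAC-THZ1, and was at least 957040 in the sham libraries, so the defining genes of heart muscle were present in every library. Of 4 atrial genes, Myl7, Sln and Bmp10 were at group means of at most 2.33, and Myl4 was at group means of 31.3 to 48.5 and at up to 81.1 in a library. Beside 21.4% of all genes higher and 23.6% lower with TAC, endothelial markers split (1 rose and 2 fell of 5), as did smooth muscle and pericyte markers (1 rose and 3 fell of 6). Of 4 macrophage markers 2 rose with TAC and none was called with THZ1 in TAC. Mesothelial and epicardial markers summed to 141 to 296 in TAC-Veh, and Upk3b and Msln, at group means of at most 9.88 in the sham groups, passed the filter through their TAC level. Lymphocyte and adipocyte markers summed to at most 75.8 and 19.5 in any library.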

How the data were processed

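The 8 genes and all gene lists were chosen with earlier results of these data known. The authors aligned stranded mRNA reads to mm9 with TopHat (TopHat2 2.1.1 in the submitters' processing notes), counted them per GENCODE gene with HTSeq by strand, and divided each library's counts by a DESeq2 size factor. The deposited signal is this normalized count. Of 22372 genes, 4484 were at 0 in every library. Values were whole multiples of 1 step per library for 100% of values (relative tolerance 1e-06), which gave back the reads. A count of 0 allows up to 3 reads, counting error only. Replicates carry separate labels, but the labels name neither animals nor batches, so p-values measure only the spread between these samples.

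Tests used limma 3.58.1 (R 4.3.3) with log2(normalized count + 1) as the response, a scale that understates changes of low genes, with 1 mean per group over 16 libraries, eBayes with trend, and a filter of at least 10 normalized counts in at least 4 libraries. Benjamini-Hochberg adjustment ran over 13331 genes per comparison, and a call was an adjusted p under 0.05. DESeq2 1.42.0 and edgeR 4.0.16 (quasi-likelihood) on the recovered reads were alternatives. On simulated data for TAC-Veh versus Sham-Veh (13331 genes, 200 changed), limma recovered 95.0% of changed genes with 3.55% of calls false. The simulated counts had the same dispersion in every gene and library, unlike the data, so these rates are not those of the calls above.

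The genes named were the 8, the other family genes, up to 4 per list with the smallest p in TAC-Veh versus Sham-Veh among those called, those most like each of the 8, and chromosome neighbours. Other genes (the cartilage, atrial, mesothelial and adipocyte markers at low level, Cthrc1, Acta2, and Podn's values per library) were chosen after their values were seen. Likeness was Pearson's r on log2 values, and 1 gene among the 5 most like Fmod is not reported here. Promoters came from RefSeq on GRCm38.p6, a later build than that of the counts, so no position was carried between builds. Same-numbered replicates were not paired: 2 of 24 correlations of their deviations exceeded 0.1 (range -0.43 to 0.164). Alternatives covered pseudocounts of 0.5 and 5, filters, upper quartile scaling, fits of the 2 groups alone, robust eBayes, array weights, a replicate block, stricter thresholds and leaving out each library. Protein sequences were not used here.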

Additional observations from a re-analysis of the deposited data

Results flagged for a closer look

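Bgn and Ogn in TAC-THZ1 each had a library far below the other 3 of its group. The lowest Bgn library held 7384 normalized counts (its gap to the next was 0.845 of the range), and the lowest Ogn library held 2812 (0.838 of the range), both above Dixon's critical value for 4 samples. Both were replicate 2, which is also the library with the highest mitochondrial share. In all, 32 groups were checked, and chance flags about 1 in 20 groups.

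For 2 other family genes the THZ1 effects in TAC and in sham were unequal by the interaction term of limma. For Tsku the log2 effect of THZ1 was lower in TAC than in sham by -0.96 (SE 0.29, adjusted p = 0.0490), and for Podn it was higher by 0.47 (adjusted p = 0.0403). Both were close to the threshold.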

How the results depend on the processing

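Of the 8 genes, 7 were called for TAC under vehicle and 5 for TAC under THZ1, and 8 for THZ1 in TAC and 0 for THZ1 in sham. With THZ1 in TAC, the fit over all 16 libraries called 29.4% of all genes in either direction. A fit of the 2 groups compared alone called 5 of the 8 there, and 10.5% of all genes. Array weights gave 7 (all but Ogn), and 18.1% of all genes. With THZ1 in sham both fits called 2 of the 8 (Lum and Ogn), where they called 465 and 513 genes against 9. The fold thresholds of the study were a log2 difference of 1 for TAC and 0.89 for THZ1. With these it was 5 with THZ1 in TAC and 1 with TAC under THZ1, counts for which no share over all genes is given. Leaving out each library in turn gave 7 to 7 and 4 to 5 for TAC, 7 to 8 and 0 to 0 for THZ1, and a median interaction from -1.25 to -0.94 around -1.13. Of the 5 genes most like Fmod, 0 were shared once values were centred on the group means. The cause of these differences was not tested. Of 864 single log2 differences over the 4 comparisons, 14 changed sign, all of values not past the threshold in the fit reported (Fmod and Dcn in sham with THZ1, Ogn with TAC, Prelp and Omd with TAC under THZ1), and 0 of values past it did. In TAC-THZ1 versus Sham-THZ1 Aspn lost its call in 13 alternatives, and with THZ1 in sham Lum and Ogn gained one in 2 each. With THZ1 in TAC, Ogn fell short of the threshold in 4 alternatives (the fit of 2 groups, array weights, and without TAC-Veh replicate 1 or TAC-THZ1 replicate 2), and Dcn and Lum in 1 each, the fit of 2 groups. With the replicate number as a block the counts were 7, 5, 8 and 0, so no count changed, but same-numbered libraries share only a number. Sham Fmod rests on 7 to 16 reads per library, so a small effect of THZ1 there was not detectable at this depth.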
